A study of Mus musculus with 10 samples.

Results

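Selenoproteins carry selenocysteine, the amino acid that holds selenium, which ribosomes insert at an in-frame UGA codon that would otherwise end translation. Cells that run short of selenium do not lose all of these proteins alike, and a housekeeping set is known to hold its level while others are given up early. The 10 selenoprotein genes described here were chosen by name under the heading of housekeeping selenoproteins and those of the endoplasmic reticulum (ER). Not all of the 10 belong to either kind, as given below. Their rows were taken from a table of 27024 named rows. All 10 were found, each on 1 row, and all 10 passed the filter on low values (a mean of 1 FPKM or more across the 10 samples), so none is left out of a count. FPKM is the number of sequenced fragments on a gene per kilobase of its length, scaled to the depth of the sample, and it allows genes of different length to be set side by side.

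The cells were wild-type bEnd.3, a mouse brain endothelial line immortalised with a viral oncogene. Of the 10 samples, 5 received 5 nM StcE, a mucinase that cuts densely O-glycosylated proteins (replicates 1, 2, 3, 5 and 6), and 5 received saline (replicates 1, 2, 3, 4 and 5), both in serum-containing medium for 16 h. None of the samples received an inactive enzyme, so cutting of mucins and any other effect of the preparation cannot be told apart. The comparison asks what loss of mucin-domain glycoproteins does to the transcriptome of these cells. The samples held 21864604 to 33147402 recovered fragments, with no difference between groups beyond the spread (exact two-sided permutation test, p = 0.278). All 11 endothelial markers reached a mean of 1 FPKM. Their sum was 1901 to 2053 FPKM with saline and 1800 to 1903 with StcE. After StcE, 6 of the 11 were lower and 0 higher past the threshold used below (limma adjusted p under 0.05). Over all genes tested, 6.41% were lower and 5.52% higher. Whether this fall of endothelial markers has a part in the values below was not tested. Of 5 brain endothelial markers, *Slc2a1* alone reached a mean FPKM of 1, and *Slco1c1* had no row. The summed markers of pericytes, astrocytes, microglia, neurons, oligodendrocytes and hepatocytes reached at most 0.315 FPKM in any sample. Those of fibroblasts were at 1.20 to 1.54, nearly all of it *Pdgfra*.

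Among the 10 genes, *Gpx4* encodes the glutathione peroxidase that reduces lipid hydroperoxides in membranes and protects against ferroptosis. *Selenof*, *Selenom*, *Selenot*, *Selenok*, *Selenos*, *Selenon* and *Selenoi* encode proteins of the ER lumen or membrane, with roles in disulphide chemistry, disposal of misfolded proteins, calcium uptake and phospholipid synthesis. *Selenoo* encodes a mitochondrial enzyme that attaches AMP to proteins, and *Selenop* a secreted protein that carries selenium between tissues. Of the 10, only *Gpx4* was listed as housekeeping, and *Selenoo* and *Selenop* were listed as neither housekeeping nor ER. The name of the set therefore does not cover these 2.

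The feature that defines all 10 is the UGA codon, and its place in the transcript differs between them. The windows below show 15 bases before the codon, the codon in capitals (as TGA) and 12 bases after it, from GENCODE vM21 transcripts on GRCm38, for the 3 genes that were lower after StcE, for 3 that were not past the threshold and for *Gpx1*, the gene used for comparison. Of *Selenop*, which has 10 such codons, the first is shown.
Selenop: cttcttcaagccagcTGAtacttgtgtctt
Selenon: gacgaccagtcctgcTGAggttccgggcgg
Selenom: gagacctgtggaggaTGAcagttgaatcgc
Selenot: cagatttgtgtatccTGAgggtaccggcgg
Gpx4: aacgtggcctcgcaaTGAggcaaaactgac
Selenok: ccaatggctggtggaTGAggaaggtaaatg
Gpx1: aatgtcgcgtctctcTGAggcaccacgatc
In *Selenom* and *Selenot* the codon tgt stands 3 codons before the TGA (the CxxU motif of redox-active selenoproteins), as it also does in *Selenoo* among the 10 and in *Selenoh*, *Selenow* and *Selenov* among the other mouse selenoproteins. The codon lies on chromosome 15, 3274848 to 3274850 in *Selenop* (exon 2 of 5), on chromosome 4, 134542338 to 134542340 in *Selenon* (exon 9 of 12), and on chromosome 11, 3516273 to 3516275 in *Selenom* (exon 2 of 5). It lies on chromosome 3, 58585238 to 58585240 in *Selenot* (exon 2 of 6), on chromosome 10, 80054737 to 80054739 in *Gpx4* (exon 3 of 7), and on chromosome 14, 29973440 to 29973442 in *Selenok* (exon 4 of 5).

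The levels of the 10 genes spanned a wide range. With saline, *Gpx4* was the highest at 165 ± 6.93 FPKM (SD, n = 5), followed by *Selenot* at 76.4 ± 2.23, *Selenof* at 74.97 ± 3.02, *Selenom* at 35.4 ± 1.04, *Selenon* at 31.0 ± 0.589, *Selenok* at 27.0 ± 0.999, *Selenos* at 19.2 ± 0.919, *Selenop* at 6.32 ± 0.409, *Selenoi* at 4.42 ± 0.280 and *Selenoo* at 1.97 ± 0.234. *Selenot* and *Selenof* overlapped in both groups, and every other pair of neighbours in this order was apart with saline. With StcE, *Selenon* overlapped *Selenok* and its mean fell below that of *Selenok*, and *Selenop* overlapped *Selenoi*. The fragments behind these values ran from 9389 to 15240 per sample for *Selenof* down to 167 to 278 for *Selenoo*, so the last is the least precise of the 10 (SD of 11.9% of its mean with saline and 12.3% with StcE).

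**Figure D1:**
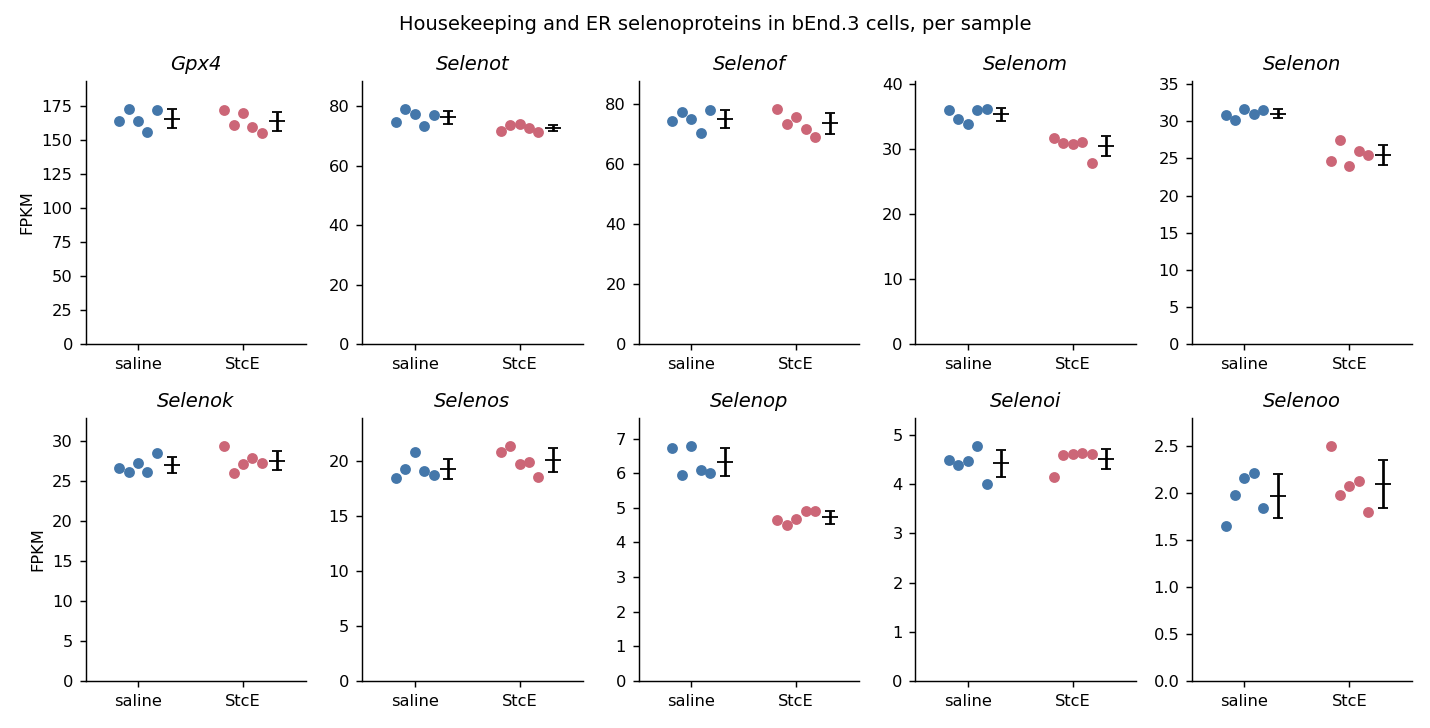
FPKM (linear axis from 0, 1 panel per gene) of the 10 selenoprotein genes in the 5 saline and 5 StcE samples, with the mean and SD of each group beside the points. The StcE samples lie below all saline samples in *Selenom*, *Selenon* and *Selenop*, and the groups overlap in the other 7 panels.

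After StcE, 3 of the 10 genes were lower and 0 were higher past the threshold (limma on log2(FPKM + 1), adjusted p under 0.05). At an unadjusted p under 0.05 limma gave 4 lower and 0 higher, and limma's voom on the recovered fragments gave 3 lower and 0 higher. Over all 11062 genes tested, 11.9% were past the threshold, 6.41% lower and 5.52% higher. The 3 were *Selenop*, *Selenon* and *Selenom*, and their StcE and saline values did not overlap. Over all genes tested, 10.7% had groups that did not overlap, 5.80% with StcE below and 4.85% with StcE above. The median log2 fold change of the 10 was -0.022, against -0.00066 over all genes tested. In bulk RNA, a smaller share of cells that express a gene and less of its RNA per cell cannot be told apart.

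*Selenop* (chromosome 15, 3268547 to 3280508, plus strand) changed most. In saline replicates 1, 2, 3, 4 and 5 it was at 6.73, 5.95, 6.79, 6.11 and 6.01 FPKM. In StcE replicates 1, 2, 3, 5 and 6 it was at 4.65, 4.49, 4.67, 4.92 and 4.90 FPKM. All 5 StcE samples thus lay below the lowest saline sample, by more than 1 FPKM. This was a log2 fold change of -0.35 with a standard error of 0.0411 (limma adjusted p = 3.1e-04), and the StcE mean was 74.8% of the saline mean. Its log2 ratio of mean FPKM without a pseudocount was -0.42, since the pseudocount of 1 shrinks changes at such low levels. On the opposite strand, *Ccdc152* overlaps 15.4% of its exon length. *Ccdc152* itself was at 0.275 ± 0.131 FPKM with saline and 0.303 ± 0.132 with StcE (SD, n = 5). Whether the overlap has a part in the *Selenop* values was not tested.

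*Selenon* (chromosome 4, 134537892 to 134552166, minus strand), whose product tunes calcium uptake into the ER and is linked to inherited muscle disease, was next. Its saline samples, in the same order, were at 30.9, 30.1, 31.6, 31.0 and 31.5 FPKM. The StcE samples were at 24.7, 27.5, 23.9, 26.0 and 25.5 FPKM. The saline samples lay within a narrow band (SD of 1.90% of the mean) and the StcE samples spread wider (5.30%), yet the highest StcE sample was still below the lowest saline sample. The change was -0.27 on the log2 scale, with a standard error of 0.0337 (limma adjusted p = 4.6e-04) and a StcE mean at 82.2% of saline.

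*Selenom* (chromosome 11, 3514684 to 3517351, plus strand), which encodes a thioredoxin-like protein of the ER lumen, had saline values of 36.0, 34.7, 33.8, 36.1 and 36.1 FPKM. Its StcE values were 31.7, 31.0, 30.8, 31.1 and 27.8 FPKM. Again no StcE sample reached the saline range, and StcE replicate 6 lay apart at the low end. Its change of -0.21 on the log2 scale had a standard error of 0.0353 (limma adjusted p = 0.00309), and it was -0.18 (limma adjusted p = 0.00240) without that sample. For each of these 3 genes the exact two-sided permutation test gave p = 0.00794, the smallest that 5 against 5 samples allow.

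The genes whose profile over the 10 samples was most like theirs were found by Pearson r of log2(FPKM + 1) among all genes tested. For *Selenop* they were *Eogt* (r = 0.973), *Ralgds* (0.973) and *Efnb2* (0.973). For *Selenon* they were *Jak1* (0.986), *Pigt* (0.982) and the selenoprotein gene *Txnrd1* (0.982). *Litaf* (0.976), *Tpgs2* (0.973) and *Ankrd46* (0.961) were nearest to *Selenom*. All 9 had a log2 fold change below 0, from -0.080 (*Litaf*) to -0.52 (*Efnb2*), and both groups are pooled in these r, so a shared difference between the groups enters them.

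The remaining 7 genes were not past the threshold. *Gpx4* (chromosome 10, 80047166 to 80056439) was at 164, 173, 164, 156 and 172 FPKM with saline. With StcE it was at 172, 161, 170.1, 159 and 155 FPKM. The groups covered nearly the same range, and the log2 fold change of -0.017 had a 95% interval of -0.096 to 0.062 (limma adjusted p = 0.802), which on this scale bounds the StcE level at 93.6% to 104% of saline. Near-identical copies in 2 processed pseudogenes cover 80.9% of its transcript. *Gpx4-ps2* (chromosome 10, 45875291 to 45876086) is the one of these with a row, and its level was 61.1 ± 3.62 FPKM in the saline group and 61.1 ± 1.98 in the StcE group, so reads of *Gpx4* may be split or shared with it, and the *Gpx4* level is uncertain to that extent.

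*Selenot* (chromosome 3, 58576636 to 58593133), an ER oxidoreductase with a thioredoxin-like fold, was the nearest to the threshold. Its saline samples were at 74.8, 79.0, 77.4, 73.4 and 77.2 FPKM, and its StcE samples at 71.7, 73.6, 73.9, 72.6 and 71.5. Saline replicate 4 alone fell inside the StcE range. The log2 fold change was -0.070 (95% interval -0.12 to -0.018, limma adjusted p = 0.0786; exact two-sided permutation test, p = 0.0238). Among 22 alternative settings, *Selenot* was past the threshold only in the fit without saline replicate 4 (limma adjusted p = 0.0471).

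*Selenof* (chromosome 3, 144570304 to 144597680) encodes an ER partner of the glucosyltransferase UGGT that checks the folding of glycoproteins. Its level was 74.97 ± 3.02 FPKM in the saline group and 73.5 ± 3.52 in the StcE group (log2 fold change -0.028, 95% interval -0.11 to 0.053). The membrane proteins SELENOK and SELENOS take part in clearing misfolded ER proteins, and SELENOK also supports protein palmitoylation. *Selenok* (chromosome 14, 29968308 to 29975662) was at 27.0 ± 0.999 and 27.6 ± 1.23 FPKM, a log2 fold change of 0.030 (95% interval -0.045 to 0.11), and 24.1% of its transcript has near-identical pseudogene copies. *Selenos* (chromosome 7, 66079649 to 66089405) was at 19.2 ± 0.919 and 20.04 ± 1.08 FPKM, a log2 fold change of 0.056 (95% interval -0.034 to 0.15).

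*Selenoi* (chromosome 5, 30232581 to 30272427) encodes the ethanolamine phosphotransferase of phosphatidylethanolamine synthesis, and was at 4.42 ± 0.280 and 4.52 ± 0.204 FPKM (log2 fold change 0.026, 95% interval -0.066 to 0.12). StcE replicate 1 was at 4.15 FPKM, below the other StcE samples at 4.59 to 4.64. *Selenoo* (chromosome 15, 89089084 to 89100340) was at 1.97 ± 0.234 and 2.09 ± 0.257 FPKM (log2 fold change 0.061, 95% interval -0.090 to 0.21), and 26.7% of its exon length overlaps *Tubgcp6* on the opposite strand, itself at 4.44 ± 0.256 and 4.56 ± 0.304 FPKM. Across the 7 genes, the intervals on the log2(FPKM + 1) scale ran from 91.9% to 116% of saline. The upper end is that of *Selenoo*, at whose low level the pseudocount of 1 shrinks both the change and its interval. Its log2 fold change was 0.087 (standard error 0.0988) with a pseudocount of 0.1. With voom it was 0.098 (standard error 0.0972), against a standard error of 0.0692 in the main fit.

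**Figure D2:**
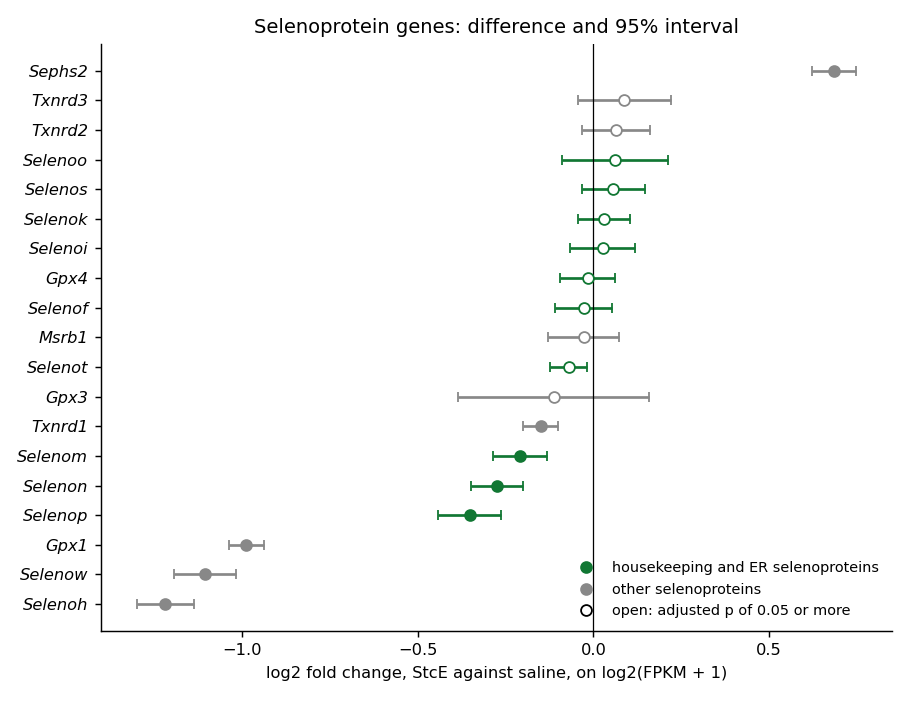
Log2 fold change (StcE against saline, on log2(FPKM + 1)) with its 95% limma interval for the 19 selenoprotein genes that passed the filter. The 10 genes described here are green (*Selenoo* and *Selenop* among them are neither housekeeping nor ER). The other selenoproteins are grey, and filled points are past the threshold. The green points run from -0.35 (*Selenop*) to 0.061 (*Selenoo*), above *Gpx1*, *Selenow* and *Selenoh*. The grey points of *Txnrd1* (-0.15), *Gpx3* (-0.11) and *Msrb1* (-0.028) lie within that range. Those of *Txnrd2* (0.065), *Txnrd3* (0.088) and *Sephs2* (0.68) lie above it.

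The other mouse selenoproteins give the scale for these values. Of 14, 10 had a row and 9 were tested. *Selenoh*, *Selenow*, *Gpx1* and *Txnrd1* were lower past the threshold, with StcE means at 42.1%, 46.3%, 50.3% and 90.0% of saline, and *Sephs2*, which makes the selenium donor for selenocysteine, was higher at 164%. *Txnrd1* was not past the threshold in the fit blocked on replicate number (log2 fold change -0.15, limma adjusted p = 0.0583, against -0.15 and 0.00160 without the block). *Msrb1*, *Txnrd2*, *Txnrd3* and *Gpx3* were not past the threshold, and *Dio2* was at or near 0. Each of the 10 genes was then set against *Gpx1* within each sample, as the log2 ratio of FPKM + 1. These ratios are a description with no test, since the log2 fold change of -0.99 of *Gpx1* itself enters all of them and raises each by that amount. For all 10 genes the lowest StcE ratio was above the highest saline ratio. The difference was smallest for *Selenop* (0.63 on the log2 scale) and *Selenon* (0.71) and was 0.97 for *Gpx4*. In plain levels, *Gpx4* stood at 49.7% ± 2.06 of *Gpx1* with saline and at 97.7% ± 3.40 with StcE (SD, n = 5). Together the 10 genes held 37.2% ± 0.350 of the summed selenoprotein FPKM with saline and 50.1% ± 0.576 with StcE. Their own sum was 442 ± 11.6 FPKM with saline and 425 ± 12.7 with StcE, while that of the other selenoproteins was 747 ± 10.3 and 423 ± 9.58.

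**Figure D3:**
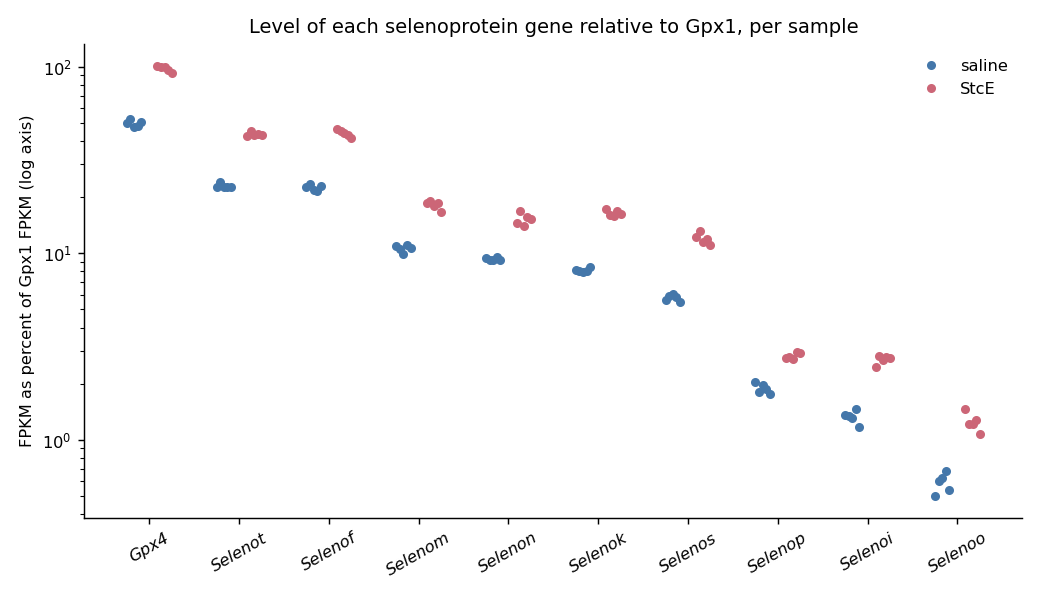
FPKM of each of the 10 genes as a percent of *Gpx1* FPKM in the same sample (log axis), 5 saline and 5 StcE samples per gene. Every StcE point lies above every saline point of its gene, with *Gpx4* moving from 49.7% to 97.7% on average.

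A stop codon far upstream of the last exon junction can send an mRNA to nonsense-mediated decay, and a UGA that is not read as selenocysteine counts as a stop. The distance from the first UGA to the last junction was therefore read in 1 annotated transcript per gene, with 50 bases as the usual limit. Other transcripts of these genes were not read, while FPKM cover the whole gene. In 6 of the 10 genes the UGA stood more than 50 bases before the last junction, at 78 bases in *Selenof*, 135 in *Selenom*, 216 in *Selenon*, 342 in *Gpx4*, 357 in *Selenop* and 470 in *Selenot*. In the other 4 it was 5 bases before the junction (*Selenok*) or in the last exon (*Selenos*, *Selenoo* and *Selenoi*). The log2 fold changes were -0.35 to -0.017 in the first 6, of which 3 were past the threshold, and 0.026 to 0.061 in the other 4, of which 0 were past the threshold, also at an unadjusted p and with voom. The sign was not fixed for all of them, since over the 22 alternative settings *Gpx4* was above 0 in 1 and *Selenoi* below 0 in 1. Among the other selenoproteins tested, *Gpx1* (105 bases), *Selenoh* (136) and *Selenow* (243) belong with the first kind, as do *Gpx3* and *Txnrd2*, neither of which was past the threshold. Of these 5, 4 had a log2 fold change below 0, and *Txnrd2* was at 0.065. *Txnrd1*, with its UGA in the last exon, was lower, and *Sephs2*, a single-exon transcript, was higher. *Msrb1* (34 bases, log2 fold change -0.028) and *Txnrd3* (last exon, 0.088) were not past the threshold. Of these 4, 2 were below 0. Distance and size of change did not run in parallel among the 6 (*Selenot* had the longest distance and a change of -0.070). The grouping was not among the planned results and is a description with no test. A part of UGA position in these differences was not tested.

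**Figure D4:**
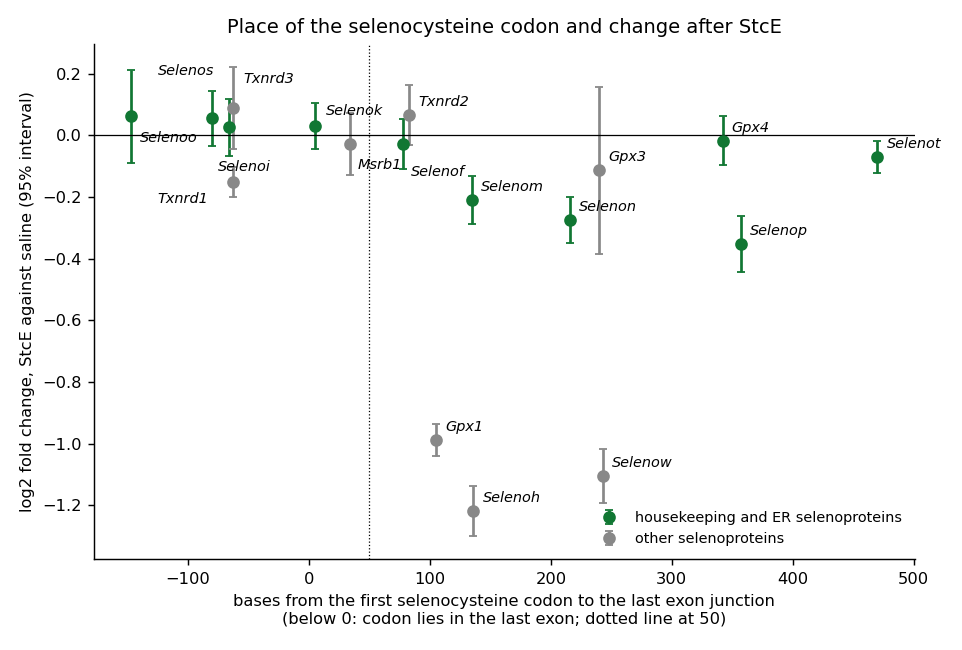
Bases from the first selenocysteine codon to the last exon junction of the transcript (x axis, below 0 for a codon in the last exon, dotted line at 50) against log2 fold change with its 95% interval (y axis) for the 18 tested selenoprotein genes with an intron. The 6 green points right of the line lie between -0.35 and -0.017, and the 4 left of it between 0.026 and 0.061. The intervals of these 4, and of *Gpx4* and *Selenof*, include 0.

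Genes that work with these proteins were read from lists. Of 12 tested genes for selenocysteine synthesis and decoding, *Rpl30*, a ribosomal protein that can bind the selenocysteine insertion element, was lower (log2 fold change -0.40, limma adjusted p = 0.0379, with overlapping groups), 0 were higher and the list's median was -0.016. The count of lower genes on this list was 0 under 13 of the 22 alternative settings, 7 of which each left out 1 sample (saline replicate 2, 3, 4 or 5, or StcE replicate 1, 2 or 3). Of the receptors that take up selenoprotein P, *Lrp8* rose from 7.71 ± 0.546 to 9.83 ± 0.504 FPKM (log2 fold change 0.32, limma adjusted p = 0.00158), and the other one tested, *Lrp1*, was not past the threshold. Of 14 tested partners of *Selenok* and *Selenos* in ER-associated degradation and palmitoylation, only *Os9*, a lectin that recognises misfolded glycoproteins, was past the threshold, with a log2 fold change of -0.16 (limma adjusted p = 0.0101). The list's median was -0.021. Of 10 tested genes of nonsense-mediated decay and 7 of ER calcium handling, 0 were past it by limma, by limma at an unadjusted p under 0.05 or by voom, and the medians were 0.030 and -0.0055.

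Of 12 tested ER oxidoreductases and folding genes, 3 were lower and 1 higher (median -0.044). The lower ones were *Txndc5* (-0.23, limma adjusted p = 0.00139), *Pdia4* (-0.084, 0.0394) and *Calr* (-0.080, 0.0379), which encode disulphide isomerases of the ER and the calcium-binding chaperone calreticulin. The higher one was *Gpx8* (0.30, limma adjusted p = 0.00626), an ER peroxidase of the *Gpx4* family that uses cysteine in place of selenocysteine. The count of lower genes on this list was 1 under 11 of the 22 alternative settings, 6 of which each left out 1 sample (saline replicate 1, 2, 4 or 5, or StcE replicate 3 or 6). In the fit blocked on replicate number, *Os9* and *Gpx8* were no longer past the threshold.

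Around *Gpx4*, 3 of 15 tested genes of lipid peroxidation and ferroptosis were higher and 0 lower (median 0.019). *Acsl4*, which loads polyunsaturated fatty acids into phospholipids, rose from 23.0 ± 0.730 to 28.5 ± 0.452 FPKM (log2 fold change 0.30, limma adjusted p = 1.9e-05). *Tfrc*, the transferrin receptor for iron uptake, rose by 0.25 on the log2 scale (limma adjusted p = 1.7e-04), and *Gch1*, which makes tetrahydrobiopterin, by 0.19 (limma adjusted p = 0.00614).

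Around *Selenoi*, 3 of 11 tested genes of phosphatidylethanolamine and phosphatidylcholine synthesis were higher and 0 lower (median 0.019). *Pcyt2*, which makes the CDP-ethanolamine that SELENOI uses, rose from 5.91 ± 0.525 to 10.5 ± 0.330 FPKM (log2 fold change 0.73, limma adjusted p = 2.2e-06). *Etnk1*, an ethanolamine kinase of the step before it, rose by 0.14 on the log2 scale (limma adjusted p = 0.00502). *Pcyt1b*, close to the filter on low values, rose from 1.16 ± 0.134 to 1.55 ± 0.121 FPKM (log2 fold change 0.24, limma adjusted p = 0.0202). Thus *Etnk1* and *Pcyt2* of the ethanolamine branch were higher, while *Selenoi* itself had an interval of -0.066 to 0.12. No other kinase gene on the list was past the threshold. The count of higher genes on this list was 3 under 17 of the 22 alternative settings, 2 under 3 and 4 under 2. The shares past the threshold in these lists stand against 11.9% of all genes.

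Among the 7 genes that were not past the threshold, *Gpx4* and *Selenof* followed each other from sample to sample. Of the 21 pairs, theirs had the highest correlation over the 10 samples on log2(FPKM + 1), a pair singled out after its values were seen (Pearson r = 0.972, permutation p = 2e-05, adjusted p = 4.2e-04; Spearman rho = 0.952, permutation p = 9e-05, adjusted p = 0.00189). Without the 2 samples farthest from the median of *Gpx4*, r was 0.966. *Selenoi* ran the other way, with r = -0.809 against *Selenof* (adjusted permutation p = 0.0377; rho = -0.879, adjusted permutation p = 0.0181) and r = -0.761 against *Gpx4* (adjusted permutation p = 0.0489; rho = -0.830, adjusted permutation p = 0.0351). Without the 2 samples farthest from the median of *Selenof*, or of *Gpx4*, these r were -0.821 and -0.810. The samples farthest in *Selenoi* were not left out in either. The other 18 pairs were not past the threshold. Values of 1 sample share a library and its scaling.

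**Figure D5:**
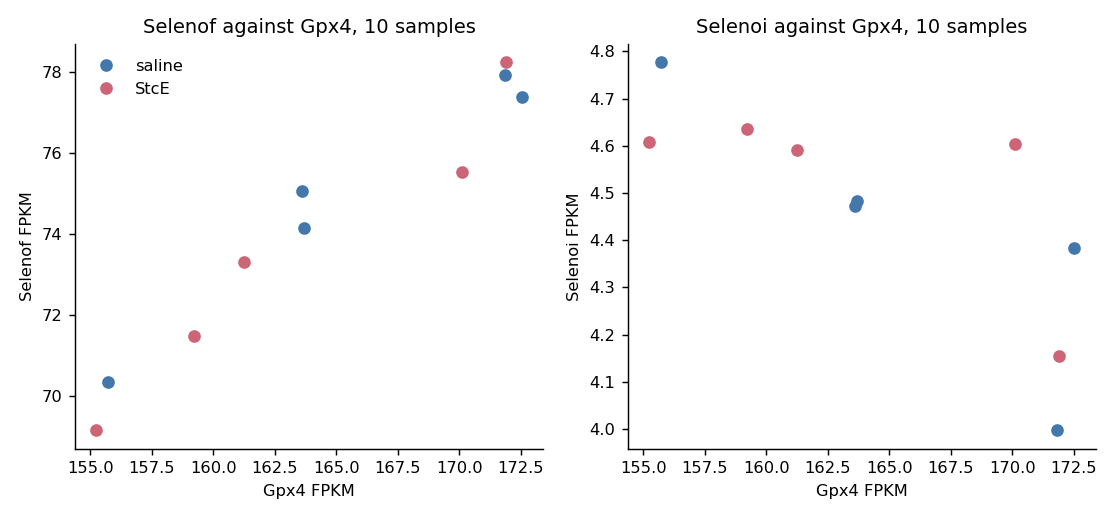
FPKM of *Selenof* (left) and *Selenoi* (right) against FPKM of *Gpx4* in the 10 samples (linear axes that do not start at 0), saline in blue and StcE in red. *Selenof* rises with *Gpx4* (r = 0.972) and *Selenoi* falls (r = -0.761), and the points of both groups lie among each other.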

How the data were processed

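The data are RNA-seq of bEnd.3 cells, with 10 samples. The authors purified poly-adenylated RNA, made directional libraries, aligned trimmed read pairs to GRCm38 and deposited FPKM, 1 column per sample. The submitters' processing notes name HISAT2 2.0.5, featureCounts 1.5.0-p3 and DESeq2 1.32.0. The annotation release and strand setting are not given in the sources used here. The deposited FPKM were turned into fragments with GENCODE vM21 exon lengths. Of the values above 0, 96.6% lay within 0.05 of a whole number. The FPKM scale followed median-of-ratios size factors to within 0.0446%, so a normalisation between samples is already in the values. Fragment counts cover counting error only.

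The test was limma 3.58.1 on log2(FPKM + 1), for genes whose FPKM averaged 1 or more (R 4.3.3, eBayes with trend), with Benjamini-Hochberg adjustment over all 11062 genes. Since the files hold FPKM, the authors' DESeq2 test on counts was not repeated. Exact permutation tests used all 252 arrangements (SciPy 1.17.1), and correlations 100000 permutations. Copies were sought with BLAST 2.17.0 (at least 95% identity over 150 bases). On simulated data for StcE against saline with 11062 genes, 107 of 200 genes changed by 0.2 on the log2 scale were called, and 189 of 200 changed by 0.5. The labels do not say whether samples came from separate cultures, so p-values measure the spread between these samples.

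The 10 genes and all lists were chosen with earlier results of these data known. By the rule, all 10 genes, the other selenoproteins, up to 4 genes past the threshold per list and the 3 nearest genes of each member past the threshold are named. *Lrp1*, *Slc2a1*, *Slco1c1*, *Pdgfra* and the overlapping or copied genes were named after their values were seen. Alternatives were another pseudocount, filters, scalings, variance models, the replicate block, and each sample left out.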

Additional observations from a re-analysis of the deposited data

Results flagged for a closer look

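Of 38 groups of 5 samples examined over the 19 selenoprotein genes tested, 2 held a sample far from the others, where chance flags about 1 in 20 groups, or 1.9 here. *Selenom* was at 27.8 FPKM in StcE replicate 6 against 30.8 to 31.7 in the other StcE samples. *Selenoi* was at 4.15 FPKM in StcE replicate 1 against 4.59 to 4.64. No explanation was tested for either sample.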

How the results depend on the processing

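Under the 22 alternatives 0 of the 10 genes were higher past the threshold, and 3 were lower, or 4 without saline replicate 4. Of these alternatives, median-of-ratios scaling repeated the main fit, since the deposited values already follow it. *Selenop* (log2 fold change -0.42 to -0.33), *Selenon* (-0.30 to -0.25) and *Selenom* (-0.23 to -0.17) stayed lower past it in each. *Selenot* ranged from -0.084 to -0.058 over the fits that each left out 1 sample and was past the threshold without saline replicate 4. Over each list, direction and alternative, the count of genes called moved by over 1.5 times, or to 0, in 28 cases. In the other 368 cases it was unchanged or moved by less. *Txnrd1* was not past the threshold with the replicate block, at nearly the same fold (log2 fold change -0.15, limma adjusted p = 0.0583).

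Over all genes, the count past the threshold was 1320 (709 lower, 611 higher). It was 801 (409 lower, 392 higher) with no filter. It was 793 to 1255 (409 to 667 lower, 384 to 588 higher) when 1 sample was left out, with 793 without StcE replicate 3 and 838 without saline replicate 1. In the fit blocked on replicate number (8 samples), 349 genes were called (162 lower, 187 higher), and 885 (452 lower, 433 higher) for those samples without the block. The labels do not say whether same-numbered samples shared more than a number, and the correlations of their deviations were -0.097 to 0.054. Scaling by total fragments, voom (on recovered fragments) and the 8 samples without the block were added after seeing the data. The share of lower genes among calls was 53.7%, 48.5% with total fragments and 46.4% with the block, which ended no other call among the selenoproteins. At this depth *Selenoo*, with 167 to 278 fragments per sample, is the least precise of the 10 genes.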
